A study of Mus musculus with 24 samples.

Results

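Described here are 8 liver genes of the xenobiotic response, of 25746 Ensembl genes listed in the count data: the cytochrome P450 genes Cyp2b9, Cyp2b10 and Cyp2b13, the receptor genes Nr1i3 (CAR), Nr1i2 (PXR) and Ahr, and Por and Alas1, which supply P450 enzymes with electrons and haem. They were chosen by name, and all 8 were found and passed the filter on low counts. Hepatic transcripts were measured by RNAseq in 24 mice, with 6 mice in each of the groups mWT, mKO, fWT and fKO (male or female, wildtype littermate or Mup knockout). All mice were 12 weeks old and of the C57/BL6N background. KO mice lacked the whole cluster of Mup genes, which encode the major urinary proteins, in every cell, after a CRISPR/Cas9 deletion that was carried forward from a single founder. All livers were collected after a short fast and then imaging under isoflurane, which WT and KO mice of both sexes share. The data allow a comparison of KO with WT within each sex, of females with males within each genotype, and of the KO effect between the sexes.

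CAR and PXR are nuclear receptors of the hepatocyte that sense drugs, bile acids and other lipophilic compounds. CAR is held in the cytosol until it is activated, then pairs with RXR in the nucleus and induces Cyp2b10, its classical target, while PXR acts mainly on Cyp3a genes with wide overlap between the targets of both. AhR, a receptor of another protein family, binds planar aromatic compounds and induces Cyp1a genes. Cyp2b9 and Cyp2b13 are known as genes of the female mouse liver under control of the sex-specific pattern of growth hormone release.

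Total counts ranged from 15361901 to 26261394 per library. The summed Mup genes reached 17028 to 37393 CPM (counts scaled to a common library size and composition) in mWT mice and 3395 to 5259 CPM in fWT mice, against at most 0.457 CPM in any KO library. The 8 hepatocyte markers summed to 103321 to 157087 CPM, and all 8 were detected in each group. Marker sums of 4 other liver cell types had higher medians in females, although not every single marker did so. The 7 Kupffer and macrophage markers summed to 69.1 to 138 CPM in mWT, 66.7 to 187 CPM in mKO, 124 to 232 CPM in fWT and 105 to 188 CPM in fKO mice, and the 8 stellate markers to 240 to 422, 236 to 333, 358 to 452 and 304 to 425 CPM. The 6 endothelial markers summed to 124 to 151, 122 to 154, 138 to 187 and 128 to 185 CPM in the same order of groups, and the 6 cholangiocyte markers to 30.4 to 40.3, 30.9 to 47.3, 36.1 to 56.4 and 39.3 to 53.7 CPM. Of the cholangiocyte markers, Sox9 was lower in females. Its mean was 1.76 CPM in mWT, 1.72 in mKO, 1.399 in fWT and 1.288 in fKO mice. Spp1 made up most of the cholangiocyte sums, with means of 31.96, 34.41, 42.12 and 42.31 CPM in that order. The stellate marker Col3a1 had means of 24.51 CPM in mWT, 21.98 in mKO, 24.08 in fWT and 32.35 in fKO mice. The other markers of the 4 lists had higher means in females within each genotype. All markers of these lists had counts, none was at 0 in a whole group, and their part in the sex differences below was not tested. The 8 lymphocyte and blood markers summed to 41.2 to 87.0 CPM in mWT and 59.9 to 113 CPM in mKO mice, and to 39.5 to 67.2 CPM in fWT and 39.8 to 51.9 CPM in fKO mice. In bulk liver, fewer cells of a type and less RNA per cell cannot be told apart.

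The 3 Cyp2b genes lie on the plus strand of chromosome 7 (GRCm38): Cyp2b10 at chr7:25897620-25926624, Cyp2b13 at chr7:26061497-26096197 and Cyp2b9 at chr7:26173411-26210661. Their promoter windows run from 250 bases before to 50 bases after the gene start in RefSeq (GRCm38.p6, plus strand, 5′ to 3′). They are shown because Cyp2b9 and Cyp2b13 had few or no reads in males, whereas Cyp2b10 had reads in every male. In the windows of Cyp2b9 (chr7:26173159-26173458) and Cyp2b13 (chr7:26061245-26061544), capitals mark the bases at which these differ from each other, and in Cyp2b10 (chr7:25897408-25897707) those that differ from Cyp2b9 or have no counterpart in it.
Cyp2b9: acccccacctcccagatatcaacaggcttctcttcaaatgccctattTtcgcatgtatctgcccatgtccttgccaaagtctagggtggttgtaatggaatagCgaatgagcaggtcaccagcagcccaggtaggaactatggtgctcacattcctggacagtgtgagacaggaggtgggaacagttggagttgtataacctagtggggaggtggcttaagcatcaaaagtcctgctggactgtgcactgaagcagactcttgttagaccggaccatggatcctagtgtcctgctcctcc
Cyp2b13: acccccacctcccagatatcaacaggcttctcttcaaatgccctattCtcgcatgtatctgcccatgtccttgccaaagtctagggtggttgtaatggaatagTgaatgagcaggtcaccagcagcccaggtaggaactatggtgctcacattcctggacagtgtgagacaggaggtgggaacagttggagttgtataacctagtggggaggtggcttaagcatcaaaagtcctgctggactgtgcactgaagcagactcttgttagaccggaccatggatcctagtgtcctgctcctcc
Cyp2b10: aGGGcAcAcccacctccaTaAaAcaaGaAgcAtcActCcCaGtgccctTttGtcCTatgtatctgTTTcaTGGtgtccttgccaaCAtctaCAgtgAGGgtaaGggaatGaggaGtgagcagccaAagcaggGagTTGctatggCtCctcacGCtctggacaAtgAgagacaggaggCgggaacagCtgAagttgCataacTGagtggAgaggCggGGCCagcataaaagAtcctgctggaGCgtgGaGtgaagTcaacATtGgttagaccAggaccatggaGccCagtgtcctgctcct
The Cyp2b9 and Cyp2b13 windows matched at 298 of 300 bases (99.3%). Counted from 1 at the 5′ end of the printed window, the 2 differences were T48C and C104T, with the Cyp2b9 base given before and the Cyp2b13 base after the position. Cyp2b10 matched Cyp2b9 at 230 of 314 aligned positions (73.2%). The nuclear receptor motif AGGTCA stood at -138 from the start of Cyp2b9 and of Cyp2b13, and no copy was in the Cyp2b10 window. Only exact copies within the windows were sought, so receptor sites farther from the start or with other bases would be missed. Either strand of AGGTCA was found in 16.3% of the 32851 promoters in the table. No window of the 3 genes held a match to the STAT motif TTCNNNGAA, present in 8.30% of promoters, or to the HNF4 motif CAAAGTCCA, present in 0.475%. In the windows of the other members, a STAT match stood at -171 from a start of Alas1 and the E-box CACGTG, present in 7.15% of promoters, at -244 from the start of Nr1i3. The AhR motif TNGCGTG (5.07% of promoters) and the D-box TTATGTAA (0.938%) were in no member window. The window of Por (chr5:135688895-135689194) lay at its RefSeq start, inside the gene coordinates given below. The region at the first base of those coordinates was not searched. Ahr itself had no entry among the promoters, so no window of this gene was searched.

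Per kb of exon, Cyp2b9 was the most abundant of the 3 genes in females, at 327 ± 49.3 CPM per kb (SD, n = 6) in fWT mice against 143 ± 35.9 for Cyp2b13 and 18.4 ± 5.46 for Cyp2b10, and it was close to absent in males. The level per library ranged from 452 to 729 CPM (median 633) in fWT mice and from 468 to 747 CPM (median 623) in fKO mice. In males it ranged from 0 to 0.187 CPM (median 0.0305) in mWT and from 0 to 0.869 CPM (median 0.219) in mKO mice, so no male mouse came near any female mouse. Over the groups, 78067 reads in fWT mice stood against 7 reads in mWT mice, a ratio of 8839 in CPM with a 95% counting interval of 4290 to 21985. In KO mice, 77103 reads in females against 34 in males gave a ratio of 2085, with an interval of 1492 to 3011. These intervals cover counting error only, and the gene passed the filter through the female libraries alone, so a sex difference followed from its being tested at all.

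Cyp2b13 followed the same division of the sexes at a lower level. It ranged from 146 to 348 CPM (median 283) in fWT mice and from 231 to 458 CPM (median 263) in fKO mice. Not a single read was counted in the 6 mWT mice, and 3 of the 6 mKO mice had 1 read each. Against the floor of 3 reads over the mWT group, equal to 0.0297 CPM, the fWT level was at least 8971-fold higher. The KO ratio, from 36933 reads in females and 3 in males, was 11320 with a counting interval of 3873 to 54897. Cyp2b13 too passed the filter through females alone. For the male genotype comparison, 3 reads against 0, no fold is given.

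Cyp2b10, the CAR target, was expressed in both sexes, and lower in males. In mWT mice it ranged from 0.706 to 5.61 CPM (median 2.81), in mKO mice from 1.95 to 7.91 CPM (median 4.60), in fWT mice from 23.8 to 53.9 CPM (median 41.8) and in fKO mice from 24.2 to 56.1 CPM (median 45.1). The lowest female mouse stood above the highest male mouse. Relative to mWT mice the fWT level was 13.3-fold higher (log2 fold change 3.73, SE 0.41, Benjamini-Hochberg adjusted p = 1.09e-06 by the quasi-likelihood test of edgeR), and relative to mKO mice the fKO level was 8.25-fold higher (3.04, SE 0.38, adjusted p = 7.16e-06). Between mice of a group it varied widely, with a coefficient of variation of 66.8% in mWT and 46.1% in mKO mice against 29.7% in fWT and 34.8% in fKO mice.

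**Figure D1:**
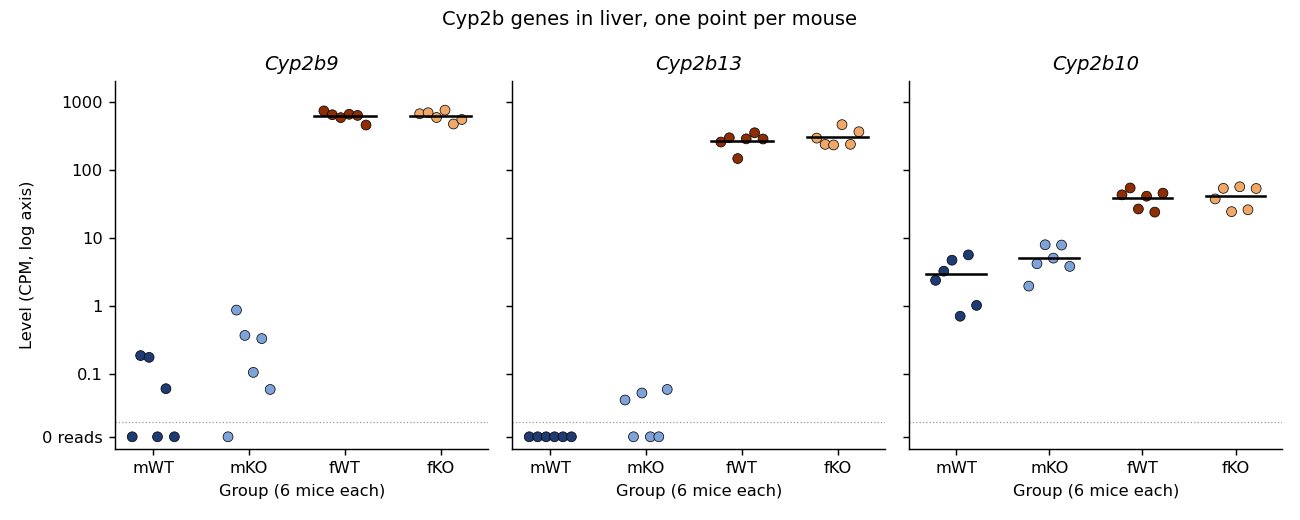
Level of Cyp2b9, Cyp2b13 and Cyp2b10 (CPM, log axis) in each of the 24 mice by group. Points below the dotted line are libraries with 0 reads, and bars are means of groups without such libraries. The female mice lie above all male mice in each panel, and only Cyp2b10 had reads in every male.

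Per kb of exon, the female Cyp2b pool was made up of Cyp2b9, then Cyp2b13, then Cyp2b10. Cyp2b9 took 67.0% ± 6.67 (SD, n = 6) of the pool in fWT and 64.8% ± 5.52 in fKO mice. Cyp2b13 took 29.2% ± 6.33 and 31.4% ± 5.23, and Cyp2b10 3.80% ± 1.13 and 3.81% ± 0.96. The ratio of Cyp2b9 to Cyp2b13 per kb ranged from 1.60 to 3.99 among fWT and from 1.51 to 2.91 among fKO mice, so both genotypes covered much the same range. In males the pool was nearly all Cyp2b10, with 98.1% ± 2.59 in mWT and 93.8% ± 6.41 in mKO mice, although at 14 to 158 Cyp2b reads per library. Of the other Cyp2b genes in the annotation, Cyp2b19 had 1 read in a single fWT and a single fKO library, and Cyp2b23 had none in any library, which allows up to 3 reads per library.

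**Figure D2:**
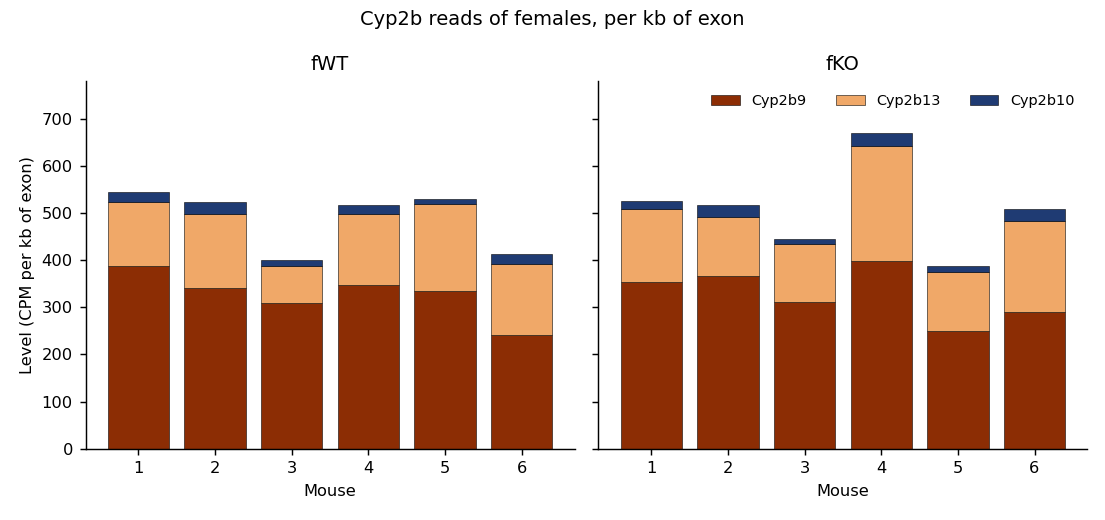
Level per kb of exon of Cyp2b9, Cyp2b13 and Cyp2b10 (CPM per kb), stacked for each of the 6 fWT and 6 fKO mice. The summed height runs from 399 to 545 in fWT and from 388 to 669 in fKO mice, and Cyp2b9 is the largest share in each mouse.

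The transcripts of the 3 genes are close copies, which bears on how far reads can be assigned. The longest transcripts of Cyp2b9 and Cyp2b13 agreed at 90.8% of aligned bases, those of Cyp2b9 and Cyp2b10 at 88.2% and those of Cyp2b13 and Cyp2b10 at 89.4%. Of all 100-base stretches of annotated transcript, the read length of the study, 1.18% of Cyp2b9 and 9.29% of Cyp2b13 also occurred in another gene, and 0% of Cyp2b10. For both genes, the others were each other and Gm45225. Cyp2b9 had 21 such stretches and Cyp2b13 had 165, so most of those of Cyp2b13 occurred in Gm45225 and not in Cyp2b9. How reads that map to several places were counted is not given in the sources used here. The counts of Cyp2b9 and Cyp2b13 are uncertain to that extent, and the split between these 2 genes only for the stretches they share.

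Nr1i3, which encodes CAR, was higher in females. It lies on the plus strand at chr1:171213970-171220701. Its level ranged from 121 to 372 CPM (median 252) in mWT, 131 to 240 CPM (median 202) in mKO, 267 to 588 CPM (median 447) in fWT and 278 to 454 CPM (median 377) in fKO mice. The ranges overlapped in WT mice, where 5 of 6 fWT mice stood above all mWT mice, and did not overlap in KO mice. The level was 1.79-fold higher in fWT than in mWT mice (log2 fold change 0.84, SE 0.23, adjusted p = 0.0144) and 1.91-fold higher in fKO than in mKO mice (0.93, SE 0.23, adjusted p = 0.00824). With only the 12 WT libraries in the fit, the adjusted p of the former was 0.054.

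In the order of group means, fWT, fKO, mWT and mKO, no neighbouring groups of Nr1i3 passed the adjusted test. The step from fKO to mWT had an adjusted p of 0.0992 and, for this gene alone, a p of 0.0411 in a two-sided exact permutation test, with 3 of 6 fKO mice above all mWT mice. Between the outer groups, fWT exceeded mKO 2.28-fold (adjusted p = 0.000854). A limit applies to these values: 3304 of the 4414 exon bases of Nr1i3 overlap Tomm40l, a mitochondrial import gene on the opposite strand, and 53.2% of its 100-base stretches occur in Tomm40l as well. The libraries were stranded, but whether strand was used in counting is not given in the sources used here, so reads of the overlap may not have been told apart. Tomm40l itself went the other way, from 12.7 ± 2.55 CPM in mWT and 12.04 ± 1.53 CPM in mKO to 6.69 ± 1.80 CPM in fWT and 6.28 ± 0.74 CPM in fKO mice (SD, n = 6 each; sex difference in WT -0.92 on the log2 scale, adjusted p = 6.23e-05).

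Nr1i2, which encodes PXR, had the lowest biological coefficient of variation of the 8 genes in the edgeR fit over all groups, 0.136, against up to 0.514 for Alas1. In fKO mice, however, the coefficient of variation of the CPM values was 16.9% for Nr1i2 and 16.6% for Cyp2b9. In the other groups that of Nr1i2 was the lowest of the genes with reads. Nr1i2 lies on the minus strand at chr16:38248323-38294824. Mice ranged from 65.7 to 106 CPM (median 80.6) in mWT, 78.0 to 94.4 CPM (median 84.7) in mKO, 69.3 to 97.2 CPM (median 83.0) in fWT and 74.3 to 112 CPM (median 80.8) in fKO, and all 4 groups overlapped. The group means lay between 83.8 and 85.9 CPM. The difference between fWT and mWT mice was 0.01 on the log2 scale, with a 95% interval from -0.21 to 0.23 that spans folds of 0.864 to 1.17, and the intervals of the KO effect were as narrow (-0.20 to 0.24 in males, -0.19 to 0.25 in females).

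Ahr, on the minus strand at chr12:35497974-35535038, overlapped between all groups as well. The values were 46.4 to 87.7 CPM (median 63.2) in mWT, 48.2 to 80.1 CPM (median 63.6) in mKO, 52.2 to 76.9 CPM (median 66.4) in fWT and 58.8 to 98.6 CPM (median 69.4) in fKO mice. Only the fKO mean, 75.4 ± 14.7 CPM (SD, n = 6), lay apart from the other means of 64.9 to 65.9 CPM, by less than the spread between mice (fKO against fWT 0.21 on the log2 scale, 95% interval -0.12 to 0.53, adjusted p = 0.933). Per kb of exon in mWT mice, Nr1i3 stood at 56.0, Nr1i2 at 32.8 and Ahr at 10.7 CPM per kb, and the first of these carries the limit of the Tomm40l overlap.

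**Figure D3:**
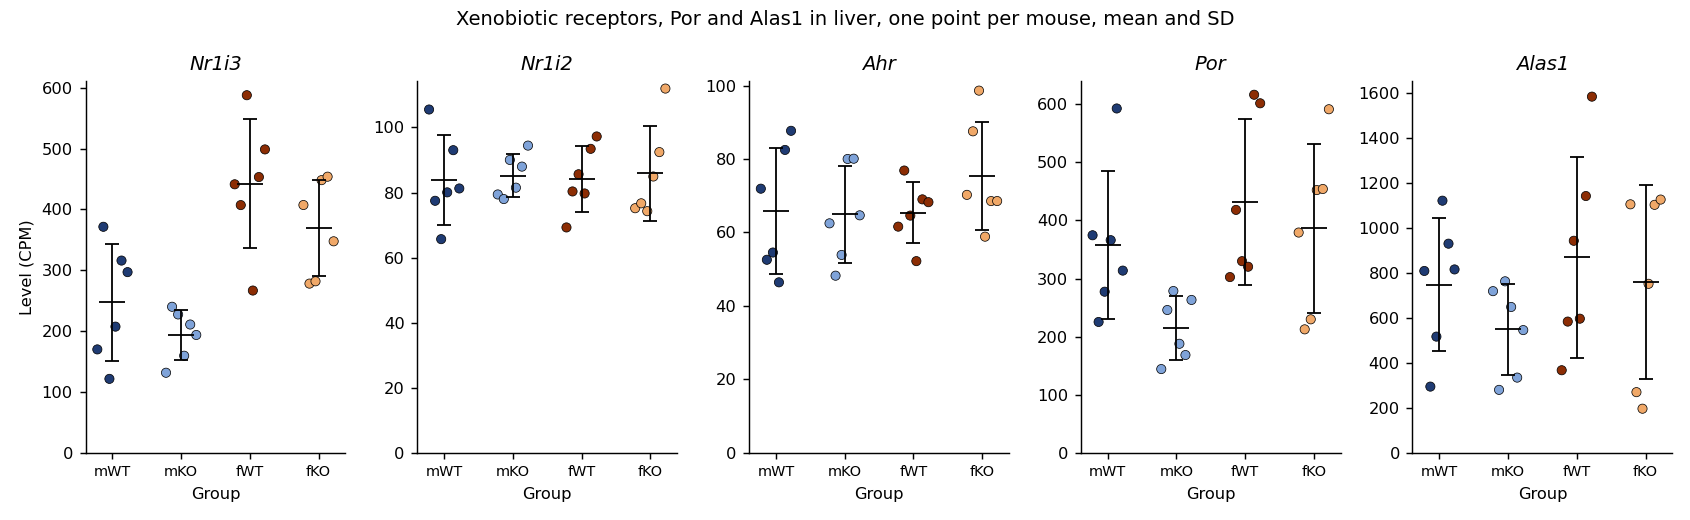
Level (CPM, linear axis from 0) of Nr1i3, Nr1i2, Ahr, Por and Alas1 in each of the 24 mice, with the mean and SD of the 6 mice of each group. Nr1i3 is higher in females, the Nr1i2 means lie between 83.8 and 85.9 CPM, and the mKO mice are the lowest group for Por.

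Por encodes the reductase that passes electrons from NADPH to all microsomal P450 enzymes. It lies on the plus strand at chr5:135670033-135735326. Its level was 225 to 593 CPM (median 340) in mWT, 144 to 279 CPM (median 217) in mKO, 303 to 617 CPM (median 374) in fWT and 212 to 592 CPM (median 416) in fKO mice. The mKO mice were the lowest group, with 3 of 6 below all mWT mice and all 6 below all fWT mice. Por was 1.80-fold higher in fKO than in mKO mice (log2 fold change 0.85, SE 0.27, adjusted p = 0.0381), while the difference between fWT and mWT mice was 0.27 (SE 0.27, adjusted p = 0.544). The difference between these, that is the interaction, had an adjusted p of 0.880. The call in KO mice was close to the threshold: the adjusted p was 0.0663 without the filter on low counts and 0.0586 with only the 12 KO libraries. It rose above 0.05 when any of 7 of the 12 KO libraries was left out, namely mKO 1, 4 or 5 or fKO 1, 4, 5 or 6, up to 0.0977 without fKO 6.

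In males, Por was 0.599 of the WT level in KO mice (log2 fold change -0.74, SE 0.27, 95% interval -1.30 to -0.18), from 358 ± 128 to 215 ± 55.3 CPM (SD, n = 6 each). The unadjusted p was 0.0124 and the adjusted p over all 12330 genes tested was 0.302 in edgeR, so the difference did not pass the test; an exact permutation test of the CPM values of this gene alone, two-sided, gave p = 0.0195. In females the estimate was -0.16 with an interval from -0.72 to 0.40. Among the group means, in the order fWT, fKO, mWT and mKO, fWT exceeded mKO 2.01-fold (adjusted p = 0.0115), and no neighbouring groups passed the adjusted test.

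Alas1, the rate-limiting enzyme of haem synthesis in the liver, was per kb of exon the most abundant member in mWT mice, at 121 ± 48.1 CPM per kb against 89.1 ± 31.8 for Por (SD, n = 6 each), and it varied widely between mice of a group. It lies on the minus strand at chr9:106233455-106248654. Values ran from 294 to 1122 CPM (median 812) in mWT, 280 to 763 CPM (median 597) in mKO, 367 to 1585 CPM (median 770) in fWT and 196 to 1127 CPM (median 928) in fKO mice. All groups overlapped, and the coefficient of variation was 36.8% to 56.9%. No comparison of Alas1 passed the test, and the intervals were wide: the KO effect was -0.45 in males (95% interval -1.36 to 0.47) and -0.20 in females (-1.11 to 0.72) on the log2 scale. The estimate for Por in males, -0.74, lies within the male interval of Alas1.

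No member passed the test between genotypes in edgeR. In males 0 of 8 were called at an adjusted p under 0.05, where 0.211% of the 12330 genes tested were, and 2 of 8 had an unadjusted p under 0.05 (Cyp2b9 and Por), where 10.6% of all genes did. In females 0 of 8 were called, with a background of 0.0892%, and 0 of 8 had an unadjusted p under 0.05, with a background of 4.87%. At the unadjusted p under 0.01, the cut-off of the study, 0 of 8 passed in any of these comparisons, where the background was 3.52% for males, 0.876% for females and 1.16% for the interaction. The KO effect differed between the sexes for 0 of 8 (background 0.00811%) and, at an unadjusted p under 0.05, for Cyp2b9 alone (background 5.96%). DESeq2 called 0 of 8 in females and for the interaction.

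In males DESeq2 called Cyp2b9, with a log2 fold change of 2.08 and an adjusted p of 0.0479, where edgeR gave 1.99 and 0.373. The call rests on 34 reads in the mKO and 7 in the mWT group. Of the 34 reads, 19 came from mKO mouse 2, and without it the edgeR estimate was 1.14. Within males, 3 of 6 mKO mice stood above all mWT mice for Cyp2b9, at levels below 1 CPM. Cyp2b10 was 1.72-fold in mKO relative to mWT mice, with a 95% interval from 0.920 to 3.23 (adjusted p = 0.553), and 2 of 6 mKO mice stood above all mWT mice. In females, where the Cyp2b genes were abundant, the intervals of the KO effect as a fold were 0.748 to 1.35 for Cyp2b9, 0.852 to 1.49 for Cyp2b13 and 0.661 to 1.73 for Cyp2b10.

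Between the sexes, 4 of 8 genes were called in WT mice, all higher in females (Cyp2b9, Cyp2b13, Cyp2b10 and Nr1i3), where 17.3% of all genes were called and 8.81% were higher. In KO mice 5 of 8 were called, the same 4 and Por, again all higher in females, against 14.4% of all genes and 7.13% higher. Of these genes, Cyp2b9 and Cyp2b13 passed the filter only through females. For the pairs used only in the order of levels, 3 of 8 were called for fKO against mWT mice (the 3 Cyp2b genes, background 14.6%) and 5 of 8 for fWT against mKO mice (these, Nr1i3 and Por, background 20.2%). The median log2 fold change of all genes tested was 0.00 in each of these comparisons except fWT against mKO, where it was 0.01.

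**Figure D4:**
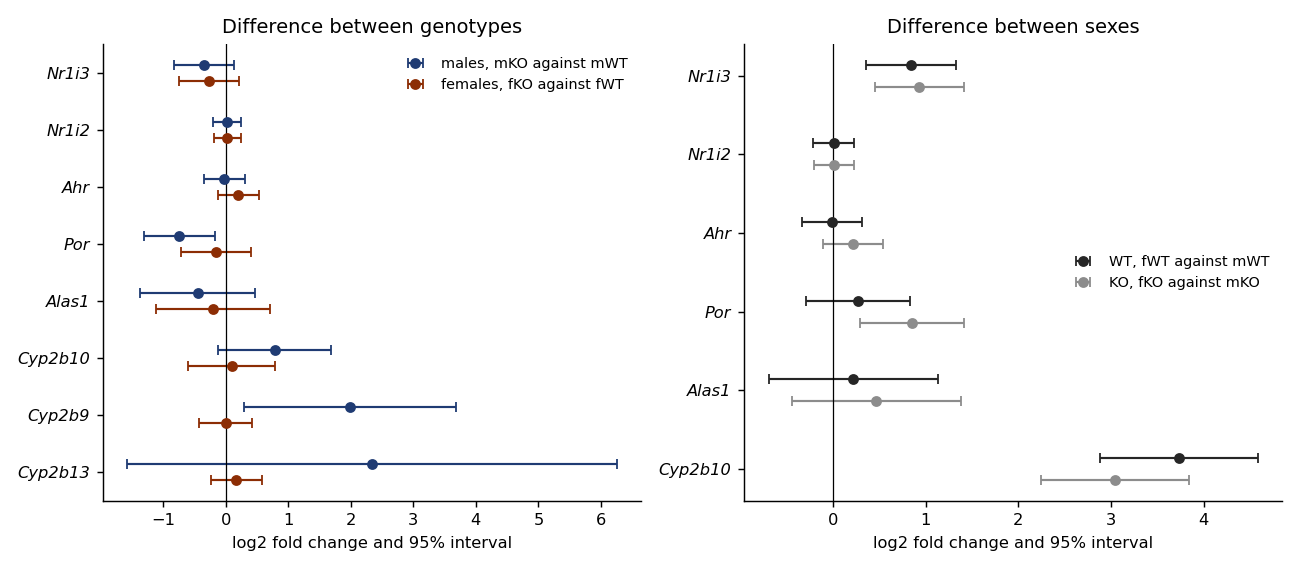
Log2 fold changes of the members with 95% intervals from the edgeR fit, between genotypes within each sex (left, all 8 genes) and between sexes within each genotype (right, without Cyp2b9 and Cyp2b13, whose male counts are near 0). The intervals of Por and Cyp2b9 in males lie off 0 but did not pass the adjusted test, and those of Nr1i3 and Cyp2b10 lie above 0 between the sexes in both genotypes.

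Por varied between mice of a group together with Nr1i2 and with Alas1. After removal of the 4 group means, the log2 CPM of Por and Nr1i2 had a Pearson r of 0.710 over 24 mice (permutation p within groups 0.00058, adjusted over 28 pairs of members 0.0162) and a Spearman rho of 0.762 (p = 0.00018, adjusted p = 0.00504). For Por and Alas1, r was 0.709 (permutation p = 0.00123, adjusted p = 0.0172) and rho 0.687 (permutation p = 0.00163, adjusted p = 0.0228). Without the 2 mice farthest from the median of Nr1i2 in the former and of Por in the latter, r was 0.718 and 0.683. Within sexes the r of Por and Nr1i2 was 0.554 in the 12 males and 0.826 in the 12 females, and that of Por and Alas1 was 0.429 and 0.869. The scaling factor of the libraries moved with these genes: its log2, also centred by group, had an r of -0.563 with Por (permutation p = 0.0125, adjusted over 6 tests 0.0488), of -0.522 with Nr1i2 (permutation p = 0.0163, adjusted p = 0.0488) and of -0.421 with Alas1 (permutation p = 0.0843, adjusted p = 0.169). The matching rho was -0.532, -0.549 and -0.414, with adjusted permutation p of 0.0570, 0.0570 and 0.163. Its part in the correlations was not tested. Against log2 total count, r was -0.192, -0.239 and 0.05.

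For Nr1i3 and its target Cyp2b10 no relation was detectable, with an r of 0.05 (permutation p = 0.862, adjusted p = 0.895) and a rho of 0.09 (permutation p = 0.716, adjusted p = 0.802). Nr1i2 and Alas1 had an r of 0.593 (permutation p = 0.00756, adjusted p = 0.0529). The third pair with an adjusted p under 0.05 was Cyp2b9 and Alas1, with an r of -0.485 (permutation p = 0.0021, adjusted p = 0.0196), a rho of -0.442 (permutation p = 0.0195, adjusted p = 0.0912) and an r of -0.441 without the 2 farthest mice. In males this pair rests on 0 to 19 Cyp2b9 reads per library. The remaining 25 of 28 pairs had an adjusted p above 0.05 by Pearson's r.

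**Figure D5:**
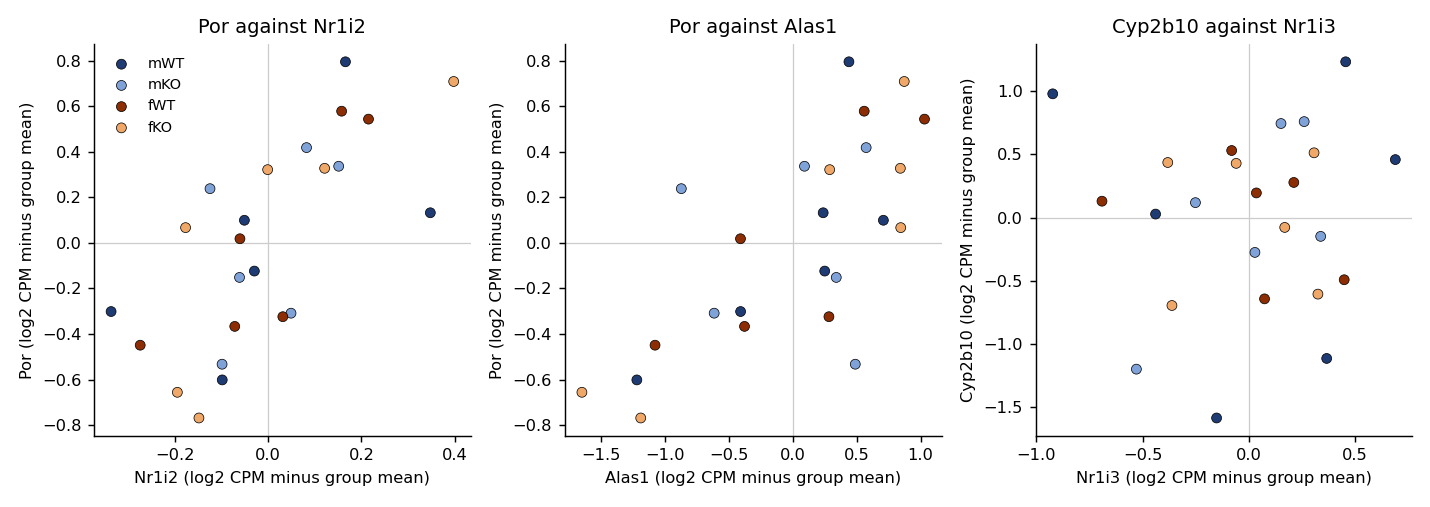
Log2 CPM minus the group mean in each of the 24 mice, for Por against Nr1i2, Por against Alas1 and Cyp2b10 against Nr1i3, coloured by group. The points rise together in the left and middle panels (r = 0.710 and 0.709) and are widely scattered in the right panel (r = 0.05).

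The wider pathways were counted in the same way. Of all genes tested, 10.6% in males and 4.87% in females had an unadjusted p under 0.05 between genotypes. Between the sexes 17.3% were called in WT mice (8.81% higher in females) and 14.4% in KO mice (7.13% higher). These shares apply beside each list count below. Of the members, Cyp2b10, Por and Alas1 were counted among the CAR and PXR targets and the Cyp2b genes in the Cyp2 cluster. Por was also in the electron transfer list and Alas1 in the haem list. Of 42 genes listed as targets of CAR and PXR, 41 were tested, and 0 were called in males or females by edgeR. An unadjusted p under 0.05 was found for 9 in males and 2 in females, and the median log2 fold change was 0.16 and 0.04. DESeq2 called 2 in males, Cyp2c29 (edgeR log2 fold change 0.46, DESeq2 adjusted p = 0.0473), a CAR-inducible P450 gene, and Cd36 (0.68, adjusted p = 0.0489), a fatty acid transporter. Between the sexes, 16 targets were higher and 8 lower in fWT than in mWT mice, and 17 were higher and 9 lower in fKO than in mKO mice. Cyp2c39 was higher in females (log2 fold change 3.11, SE 0.19, in WT and 2.73, SE 0.18, in KO), as was Abcb1a, a drug efflux pump (2.54, SE 0.31, in KO), whereas Gsta1, a glutathione transferase gene, was lower (-2.33, SE 0.45, and -2.72, SE 0.44). Cyp2c and Gsta genes have close copies, so their counts are uncertain. Cyp3a11, the classical PXR target, was not called, with -0.33 in WT (adjusted p = 0.232) and -0.42 in KO (adjusted p = 0.129); it was named after its values were seen.

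Around Ahr, 12 of 14 listed partners and targets were tested. Between genotypes 0 were called by edgeR or DESeq2 in either sex, and an unadjusted p under 0.05 was found for 1 in males, the AhR partner Arnt (-0.34), and for 0 in females. In WT mice 3 were higher in females (Nqo1, a quinone reductase, 1.03, SE 0.16, and the glucuronosyltransferases Ugt1a6a and Ugt1a6b, 0.44 each, which share exons and may share reads) and Gsta1 was lower. In KO mice 4 were higher, Nqo1 (0.79, SE 0.16) and Arnt (0.33, SE 0.10) among them, and 1 was lower. Cyp1a1 and Cyp1a2, named after their values were seen, were not called: Cyp1a1 had -0.13 in WT and -0.15 in KO mice, and Cyp1a2 0.14 and -0.01. Among 22 receptor cofactors, including the CAR partner Rxra and its cytosolic chaperones, 0 were called between genotypes by either tool (unadjusted p under 0.05 for 1 in males and 0 in females). Egfr, a receptor that restrains CAR, was called by edgeR between the sexes, lower in females with -0.96 (SE 0.22) in WT and -0.92 (SE 0.22) in KO mice.

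For the partners of P450 enzymes, 9 genes of electron transfer were tested. Besides Por, the adjusted test called Fdx1 (-0.55, SE 0.12) and Cyb5r3 (-0.44, SE 0.09) lower in fWT than in mWT mice, and Cyb5r3 (-0.49, SE 0.09) and Cyb5b (-0.35, SE 0.10) lower in fKO than in mKO mice, so Por alone of these was called higher in females. Between genotypes edgeR called 0 of 9, with an unadjusted p under 0.05 for 5 in males and 0 in females; DESeq2 called 1 in males, Pgrmc2 (edgeR log2 fold change 0.34, DESeq2 adjusted p = 0.0177), a haem-binding membrane protein. In the haem pathway, 17 of 17 genes were tested and 0 were called between genotypes by either tool, with an unadjusted p under 0.05 for 0 in males and 1 in females. Alas2, the erythroid counterpart of Alas1, was lower in females (-3.44, SE 0.17, in WT and -3.15, SE 0.17, in KO). The lymphocyte and blood markers, whose sums did not overlap between fKO and mKO mice, moved in the same direction in KO mice, and their part in this difference was not tested. Fech, the last enzyme of the pathway, was lower in fWT than in mWT mice (-0.21, SE 0.06).

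The neighbours of the Cyp2b genes on chromosome 7 and the regulators of sexual dimorphism were read in the same way. Of 14 genes of the Cyp2 cluster 8 were tested, and in both genotypes 5 were higher and 1 was lower in females. Beside the 3 Cyp2b genes, the higher ones were Cyp2a4, a steroid hydroxylase (10.40, SE 0.47, in KO mice on the fitted log2 scale), and Cyp2g1 (1.27, SE 0.23, in WT and 2.02, SE 0.24, in KO), and the lower one was Cyp2f2 (-0.70, SE 0.11, and -0.77, SE 0.11). Of 14 growth hormone and sex regulators, 5 were higher and 2 lower in fWT than in mWT mice, and 5 higher and 1 lower in fKO than in mKO mice. These included Cux2, a female-biased repressor (6.30, SE 0.50, and 7.50, SE 0.55), and the prolactin receptor gene Prlr (2.32, SE 0.14, and 2.12, SE 0.14). Differences as large as those of Cyp2a4 and Cux2 can arise where a gene passed the filter through females alone, as Cyp2b9 and Cyp2b13 did. Whether this holds for Cyp2a4 and Cux2 was not tested, so their sex calls may follow from their being tested at all. In both lists edgeR called 0 genes between genotypes, with an unadjusted p under 0.05 in males for 2 of 8 and 1 of 14 and in females for 0 of 8 and 2 of 14, and DESeq2 called in males Cyp2b9 and Trim24 (adjusted p = 0.0164).

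The genes whose levels over 24 mice, after removal of group means, were most like each member are given as a description. For Por these were Eif4ebp3 (r = 0.911, with 0.892 in males and 0.954 in females) and Rhbdd2 (0.893, with 0.821 and 0.938), besides an unnamed gene that overlaps 501 exon bases of Eif4ebp3 on the same strand (0.899). Alas1 was most like Abcf1 (0.851), Pik3r1 (0.835) and Lpin1 (0.833), and for all 3 r was higher in females (0.927 to 0.956) than in males (0.599 to 0.730). Nr1i2 was most like Baiap2l1 (0.857), Psmd9 (0.842) and Hp (0.829), Nr1i3 most like Gm45909 (0.837), Acot4 (0.813) and Amer2 (0.810), and Ahr most like Rufy1 (0.741), Tsc22d3 (0.730) and Diaph1 (0.711). Cyp2b10 followed Tec (0.756), Car14 (0.750) and Tet2 (0.739), with 0.838 to 0.896 in males and 0.373 to 0.548 in females. Over the 12 females, where their counts are not sparse, Cyp2b9 was correlated with its nearest gene Tbx3 at 0.749 and Cyp2b13 with its nearest gene Ythdf2 at 0.876.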

How the data were processed

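Liver RNA of 24 mice, 6 per group, was sequenced once per mouse. According to the labels and the methods of the study, the authors made stranded mRNA libraries (TruSeq), processed reads with bcl2fastq 2.19, fastp 0.20 and STAR 2.7a on GRCm38.p6, and counted them per gene. The deposited values are raw counts per Ensembl gene, 15361901 to 26261394 per library, without normalization. The annotation release, the strand setting and the treatment of reads mapping to several places are not given in the sources used here. Of 25746 genes, 25712 matched GENCODE M21, which gave names, exon lengths and coordinates, and 7 of 8 members matched the RefSeq promoter table; 6 motifs were searched on both strands (nuclear receptor AGGTCA; STAT TTCNNNGAA; AhR TNGCGTG; E-box CACGTG; D-box TTATGTAA; HNF4 CAAAGTCCA).

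Groups and mouse numbers came from the labels. A minimum of 0.66 CPM in 6 or more libraries left 12330 genes, which were tested by edgeR 4.0.16 (R 4.3.3) with TMM factors, robust quasi-likelihood dispersions and 4 group means over all 24 libraries; adjusted p under 0.05 was a call. DESeq2 1.42.0 and 32 other settings were alternatives. CPM values use the scaled library size, and log2 CPM for correlations a prior count of 2. Correlations were tested with 100000 permutations within groups (Python 3.11.15, scipy 1.17.1). A floor is 3 counts; counting intervals are 95% exact binomial intervals of pooled reads and cover counting error only. On simulated counts for the KO effect in males over 12330 genes, log2 changes of 1 were recovered for 72% of changed genes. Those of -1 were recovered for 66% and those of size 2 for all, while 7.65% of the calls were false. Recovery at the spread and level of each member was not tested. The biological coefficient of variation was 0.514 for Alas1, 0.475 for Cyp2b10 and 0.321 for Por, and Cyp2b9 had 0 to 19 reads per mKO library.

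Members and gene lists were chosen with earlier results of these data known. All 8 members, any other Cyp2b gene, up to 4 called genes with the largest change per list and comparison, and the 3 genes most like each member were named; the lists hold Cyp2 cluster genes, CAR and PXR targets, AhR partners and targets, receptor cofactors, haem and P450 electron transfer genes, and growth hormone and sex regulators. Some results that this rule selects are not reported here. Exceptions are said to be named after their values were seen, as are genes called by DESeq2 alone or with only an unadjusted p under 0.05. P-values measure the spread between these mice of a colony. No library pair of a group agreed within sampling noise.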

Additional observations from a re-analysis of the deposited data

How the results depend on the processing

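Under the 33 alternatives the members called stayed 0 of 8 between genotypes, except that DESeq2 called 1 in males, and between sexes were 4 of 8 in WT mice (3 with only the WT libraries) and 4 or 5 of 8 in KO mice. The count of all genes called in males, 26, became 139 with DESeq2, 48 with only the male libraries and 2 without the Mup genes, and ran from 19 to 59 when a library was left out (59 without mWT mouse 1, 40 without mWT mouse 2). In females 11 became 18 with DESeq2 and 0 without the Mup genes, and for the interaction 1 became 11 with DESeq2. Removal of the Mup genes takes away the genes that were deleted. The cause of the other shifts was not tested.

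The mouse numbers do not pair the mice: over 36 pairs of equal number in different groups, r of the deviations had a median of 0.00, from -0.34 to 0.25. With the number as a replicate block no member's call changed, and Nr1i2 (interaction, 0.0026) and Ahr (sex difference in WT, 0.0035) turned their sign near 0.

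When single libraries were left out, the log2 fold changes that turned sign were those near 0. Between genotypes in males Nr1i2 ran from -0.0378 to 0.1001 and Ahr from -0.1066 to 0.0751, and in females Cyp2b9 from -0.0673 to 0.0737, Cyp2b10 from -0.0079 to 0.2127, Nr1i2 from -0.063 to 0.0732 and Alas1 from -0.3546 to 0.0641. In the interaction Nr1i2 ran from -0.0653 to 0.0851 and Nr1i3 from -0.2308 to 0.0622. Between sexes in WT mice Nr1i2 ran from -0.0536 to 0.0842, Ahr from -0.0946 to 0.0874 and Alas1 from -0.0413 to 0.3778, and in KO mice Nr1i2 from -0.0762 to 0.0504. Por between sexes in KO mice kept its direction, from 0.69 to 0.98, with adjusted p from 0.0168 to 0.0977. Male Cyp2b9 and Cyp2b13 are limited by depth: 3 counts correspond to 0.151 to 0.191 CPM in mWT libraries.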
